A study of Mus musculus with 6 samples.

Results

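The genes described here encode protein tyrosine and dual-specificity phosphatases, measured in mature (Vα2hi CD24lo) CD4 SP thymocytes that lack the H3K27Me3 demethylases Jmjd3 and Utx (dKO) or carry both (wild-type). They were the genes whose single symbol in the array annotation starts with *Ptpn*, *Ptpr*, *Ptp4a* or *Dusp*, together with *Ubash3a* and *Ubash3b*, each taken at its brightest row, and there were 66 of them among 19752 genes. In dKO mice, which had the OT-II TCR as a transgene, *Cd4*-Cre removed floxed parts of both *Jmjd3* and *Utx* from the DP stage on. The wild-type cells came from OT-II mice that were negative for Cre and, according to the Methods, carried floxed alleles themselves. The Methods give adult animals, female unless stated otherwise, and sex, age and any pooling of animals are not in the sample records. There were 3 dKO and 3 wild-type arrays, described in the sample records as biological replicates without naming separate mice, and p-values therefore reflect only how far these arrays spread, which may be technical.

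A protein tyrosine phosphatase removes phosphate from tyrosine, and a dual-specificity phosphatase (DUSP) also removes it from serine or threonine. In T-cells they set the threshold and the length of TCR signals. CD45 and the Sts proteins act on the Src-family and Syk-family kinases next to the receptor, SHP-1 and Pep act on the same kinases from the cytosol, and DUSPs that bind MAP kinases switch ERK, JNK and p38 off again. Most of these enzymes share a catalytic cysteine, whereas the Sts proteins, encoded by *Ubash3a* and *Ubash3b*, use a histidine.

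Values are log2 values as deposited, and a difference is dKO minus wild-type. The medians of the 6 arrays lay between 6.27 and 6.32, and their first quartiles between 4.97 and 5.01. *Kdm6a*, encoding Utx, had log2 values of 9.48, 9.40 and 9.58 in dKO arrays, against 10.16, 10.11 and 10.20 in wild-type arrays. The annotation used here does not say which exons this row covers, so the deletion itself is not measured. *Kdm6b*, encoding Jmjd3, had means of 9.81 ± 0.09 in dKO and 9.90 ± 0.07 in wild-type cells (SD, n = 3 each, adjusted p = 0.32). *Cd3e* (13.07 in dKO and 13.06 in wild-type cells) and *Cd4* (12.30 in dKO and 12.21 in wild-type cells) were at like values in both groups. Of the 7 measured markers of mature CD4 T-cells, *Cd5* and *Zbtb7b* fell, *Cd28* and *Il7r* rose and 3 did not pass. *Zbtb7b* kept 83.2% of its wild-type value (limma, adjusted p = 0.022), a small decrease in a gene that the paper describes as not reduced in dKO cells. Means of the 6 measured B-cell markers stayed between 4.22 and 6.51 in dKO cells and between 4.26 and 7.14 in wild-type cells, and 1 of them, *Cd79b*, fell. Of 6 CD8 T-cell markers, *Runx3* fell and *Cd8b1* and *Prf1* rose, with summed log2 values of 45.8 to 46.1 in dKO arrays and 43.8 to 44.5 in wild-type arrays. Of 7 markers of DP thymocytes, *Dntt* (2.88-fold) and *Cd8b1* rose and *Rag1* and *Arpp21* fell, with sums of 48.8 to 50.6 in dKO arrays and 47.3 to 49.1 in wild-type arrays. Of 6 macrophage markers, *Lyz2* rose (adjusted p = 0.043), with its highest value in dKO replicate 1, and *Itgam* fell, with sums of 30.8 to 31.9 in dKO arrays and 31.3 to 31.7 in wild-type arrays. Of 5 NK cell markers *Nkg7* fell, of 5 thymic epithelial markers *Epcam* rose, and the other 4 of each list did not pass. None of 8 dendritic cell or 2 erythroid genes passed. The dendritic cell genes had sums of 44.3 to 46.8 in dKO arrays and 43.8 to 44.8 in wild-type arrays. Their highest sum was in dKO replicate 1, as were the highest values of *Cd74* (7.73) and *H2-Aa* (7.11). The 4 markers of regulatory T-cells, *Foxp3*, *Il2ra*, *Ikzf4* and *Ctla4*, all fell in dKO cells, with summed log2 values of 27.5 to 28.6 in dKO arrays and 30.9 to 31.0 in wild-type arrays. In sorted bulk cells, fewer cells of a type and less RNA per cell cannot be told apart, and the part of these shifts in the results below was not tested.

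Among the 66 genes, limma called 14 decreases and 5 increases (adjusted p below 0.05, Benjamini-Hochberg over all genes). These were 21.2% and 7.58% of the phosphatase genes, against 10.0% and 13.1% of the 19752 genes tested, of which 23.1% were called in either direction. The median difference of the 66 genes was -0.04, against 0.01 for all genes, and 47 genes did not pass the test. Only *Ubash3b* was lower by 2-fold or more, as were 0.582% of all genes, and no phosphatase gene was higher by that much. Of the 39 members whose mean lay above the median of all genes, 28.2% fell and 12.8% rose (16.7% and 23.2% among the whole set of genes above it). Of the 27 dimmer members 3 passed, all of them lower in dKO cells (11.1%, against 3.34% lower and 3.02% higher among all dimmer genes). Of the 19 calls, 15 held when each array was left out in turn. The calls on *Dusp6*, *Ptp4a2*, *Ptpn1* and *Ptpn3* did not.

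**Figure D1:**
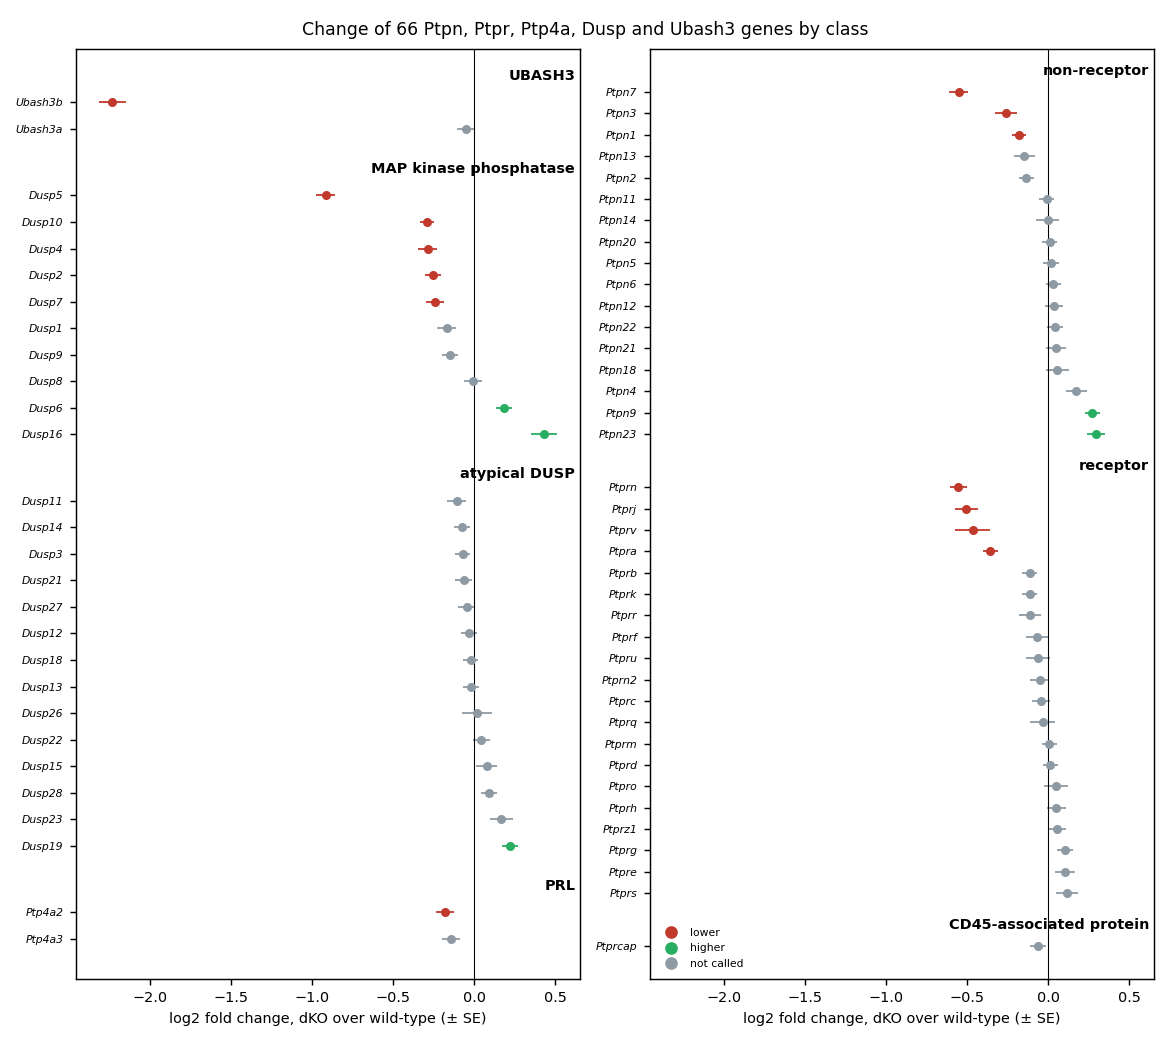
Log2 fold change (horizontal axis, dKO over wild-type, bars are standard errors) of each of the 66 genes, grouped by class and coloured by the call at an adjusted p of 0.05. *Ubash3b* stands at -2.23 and *Dusp5* at -0.92, and the other genes lie between -0.56 and 0.43.

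The promoters of 4 genes are shown because they belong to the gene with the largest decrease and its paralog, which did not pass the test, and to the MAP kinase phosphatases with the largest decrease and increase. RefSeq promoters (GRCm38.p6) cover 250 bases before and 50 bases after a start, and were found for 52 of the 66 genes, with 70 starts in all. Capitals mark matches to a CArG box, the site of serum response factor, and none of the 4 matched the cAMP response element TGACGTCA or the Foxo site GTAAACA on either strand. *Ubash3b* (chr9:41158013-41158312, minus strand, the first of 2 starts), *Ubash3a* (chr17:31207816-31208115, plus strand), *Dusp5* (chr19:53528895-53529194, plus strand) and *Dusp16* (chr6:134792579-134792878, minus strand) read as follows, each 5′ to 3′.
Ubash3b: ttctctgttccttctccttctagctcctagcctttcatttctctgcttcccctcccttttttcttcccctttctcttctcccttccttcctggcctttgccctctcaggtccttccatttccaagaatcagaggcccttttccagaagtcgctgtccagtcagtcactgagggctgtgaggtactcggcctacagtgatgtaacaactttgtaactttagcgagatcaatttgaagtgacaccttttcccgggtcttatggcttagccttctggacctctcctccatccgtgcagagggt
Ubash3a: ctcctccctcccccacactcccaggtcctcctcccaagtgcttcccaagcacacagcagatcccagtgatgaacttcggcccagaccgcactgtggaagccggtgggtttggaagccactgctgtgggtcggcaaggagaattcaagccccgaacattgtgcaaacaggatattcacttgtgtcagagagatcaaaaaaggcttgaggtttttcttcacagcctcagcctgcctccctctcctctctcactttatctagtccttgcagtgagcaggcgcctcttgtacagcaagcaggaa
Dusp5: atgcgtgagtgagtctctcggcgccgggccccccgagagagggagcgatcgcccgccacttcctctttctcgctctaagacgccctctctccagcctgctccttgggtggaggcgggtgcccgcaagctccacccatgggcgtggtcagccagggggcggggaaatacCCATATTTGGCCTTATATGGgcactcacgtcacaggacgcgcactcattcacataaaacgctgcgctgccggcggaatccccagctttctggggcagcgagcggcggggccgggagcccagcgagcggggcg
Dusp16: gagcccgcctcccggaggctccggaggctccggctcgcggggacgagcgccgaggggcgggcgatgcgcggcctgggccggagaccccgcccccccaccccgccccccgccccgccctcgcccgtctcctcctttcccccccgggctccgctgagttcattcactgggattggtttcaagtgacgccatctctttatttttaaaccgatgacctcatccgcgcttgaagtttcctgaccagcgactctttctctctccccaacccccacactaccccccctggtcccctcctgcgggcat
The *Dusp5* promoter held 2 adjoining CArG boxes, 82 to 73 and 72 to 63 bases before the start. A CArG box was found in 1.63% of all 32851 promoters of this length and 2 or more boxes in 6 promoters. The *Ubash3b* and *Ubash3a* promoters held 5 and 6 CpG dinucleotides, and those of *Dusp5* and *Dusp16* held 28 each, against a median of 7 over all promoters and 18 over the 70 promoters of these genes. A Foxo site was found in 4 of the 70 promoters, those of *Ptpra*, *Ptprh* and 2 starts of *Ptprr* (5.71%, against 3.65% of all promoters). The windows of these 2 *Ptprr* starts overlap and hold the same site, which is thus counted for both. A cAMP response element was found in 5 of the 70 promoters, those of *Dusp1*, *Dusp8*, *Ptpn11*, *Ptprs* and *Ptpru* (7.14%, against 1.79%). None of these 5 genes was called, but most of the 66 genes, 47, were not called either. A match describes the letters in this window and not binding.

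*Ubash3b*, encoding Sts-1, which removes phosphate from Zap70 and Syk and so restrains TCR signals, was the phosphatase gene with the largest decrease in dKO cells. Its log2 values were 6.64, 6.89 and 6.997 in dKO arrays, against 9.02, 9.13 and 9.08 in wild-type arrays. The groups were more than 2 log2 units apart, and dKO replicate 1 was the lowest of the 6. The log2 difference was -2.23 (SE 0.08, adjusted p = 1.3e-07), which left 21.3% of the wild-type value and ranked 10 among the decreases of all genes. Its paralog *Ubash3a*, encoding Sts-2, had values of 10.77, 10.89 and 10.91 in dKO arrays and 10.86, 10.89 and 10.97 in wild-type arrays. These values overlapped, with a log2 difference of -0.05 (SE 0.05, adjusted p = 0.61). Within an array, *Ubash3b* minus *Ubash3a* was -4.02 ± 0.11 in dKO and -1.83 ± 0.07 in wild-type cells (SD, n = 3 each). This ratio of row signals is no comparison of the levels of the genes, and its change was -2.19 (SE 0.07, two-sided exact permutation p = 0.1, the smallest that 3 against 3 arrays allow). The pair was chosen after the values had been seen.

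**Figure D2:**
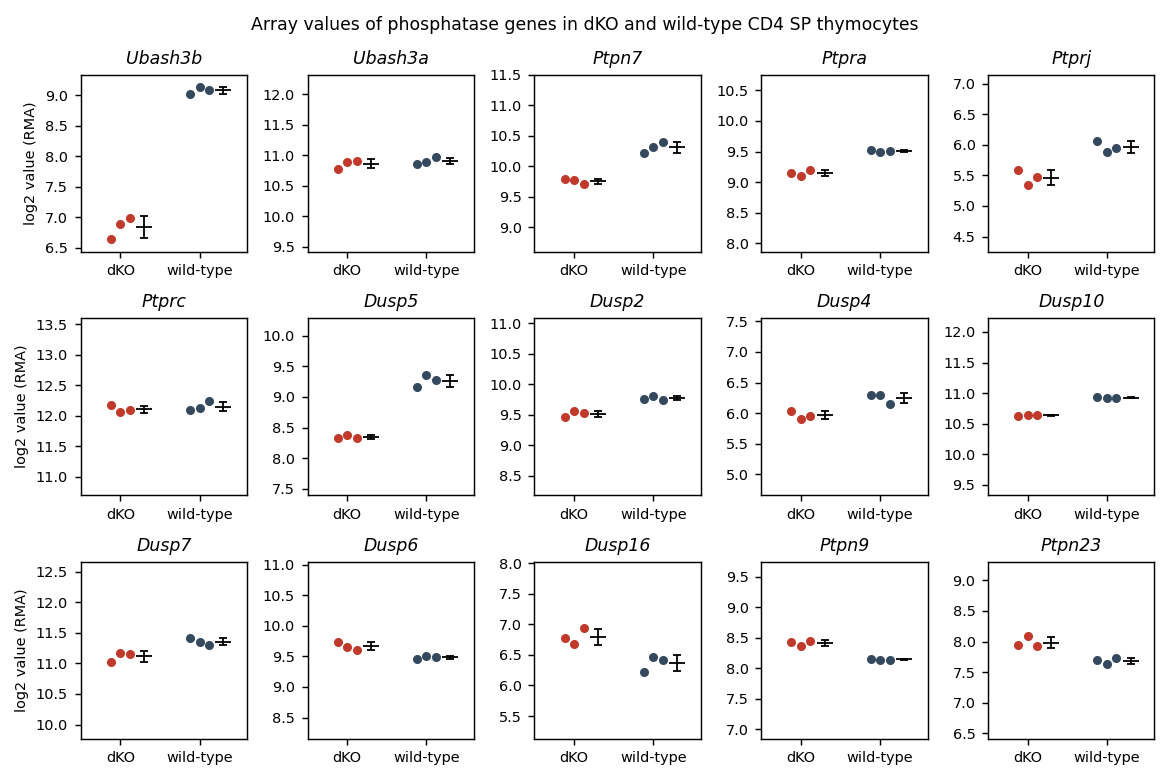
Log2 value (vertical axis, each panel spans the same number of log2 units) of 15 phosphatase genes on each of the 3 dKO (red) and 3 wild-type (dark blue) arrays. The black bar is the mean with its SD. *Ubash3b*, *Dusp5* and *Ptpn7* are apart between the groups, while *Ptprc* and *Ubash3a* overlap.

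The MAP kinase phosphatases were the class with the most calls, as 5 of 10 were lower and 2 were higher. These were 50% and 20%, against 10.0% and 13.1% of all genes. Among all genes above the median, where 8 of the 10 lay, the shares were 16.7% and 23.2%. *Dusp5*, encoding a nuclear phosphatase specific for ERK, kept 53.0% of its wild-type value. Its log2 values were 8.33, 8.39 and 8.33 in dKO arrays, against 9.16, 9.36 and 9.28 in wild-type arrays (log2 difference -0.92, SE 0.06, adjusted p = 4.0e-06). The highest dKO value lay well below the lowest wild-type value.

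*Dusp5* belongs with *Dusp1*, *Dusp2* and *Dusp4* to the nuclear phosphatases that MAP kinase signals themselves induce. For each of these 4 genes the highest dKO value was under the lowest wild-type value, as for 16.5% of all genes. *Dusp2*, encoding the lymphocyte phosphatase Pac-1, fell by 0.25 on the log2 scale (SE 0.05, adjusted p = 0.0037), with 9.46, 9.55 and 9.53 in dKO arrays, against 9.76, 9.80 and 9.74 in wild-type arrays. *Dusp4* fell by 0.29 (SE 0.06, adjusted p = 0.0056), with means of 5.96 ± 0.06 in dKO and 6.25 ± 0.09 in wild-type cells (SD, n = 3 each) that lay below the medians of the arrays. *Dusp1*, whose product acts on p38, JNK and ERK, had means of 10.28 ± 0.04 in dKO and 10.45 ± 0.10 in wild-type cells (SD, n = 3 each) and did not pass (log2 difference -0.17, adjusted p = 0.067). Without wild-type replicate 1 it was called lower (adjusted p = 0.022), as it was after cyclic loess normalization, with an intensity trend and among the brightest 50% of genes.

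The cytoplasmic phosphatases that act on ERK did not move as one. *Dusp6* was higher in dKO cells, with log2 values of 9.74, 9.65 and 9.61 in dKO arrays, against 9.46, 9.50 and 9.49 in wild-type arrays (log2 difference 0.19, SE 0.05, adjusted p = 0.023). The groups did not overlap, yet the call was lost when any 1 of 5 arrays was left out (highest adjusted p = 0.075, without dKO replicate 1), and it held without dKO replicate 3. *Dusp7* fell by 0.24 (SE 0.06, adjusted p = 0.012), with 11.02, 11.17 and 11.15 in dKO arrays, against 11.41, 11.35 and 11.30 in wild-type arrays. *Dusp9* had a log2 difference of -0.15 (adjusted p = 0.053), and it passed without dKO replicate 1 (adjusted p = 0.040) or among the brightest 75% of genes (0.044). Relative to *Dusp6* within an array, *Dusp5* changed by -1.10 (SE 0.07, two-sided exact permutation p = 0.1, the smallest possible), a pair also chosen after the values had been seen.

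The 3 phosphatases that prefer JNK and p38 went separate ways. *Dusp16* was the member with the largest increase, at 6.77, 6.69 and 6.94 in dKO arrays, against 6.21, 6.46 and 6.42 in wild-type arrays (log2 difference 0.43, SE 0.08, adjusted p = 0.0034). *Dusp10*, encoding MKP-5, had the closest replicates, with 10.62, 10.64 and 10.64 in dKO arrays, against 10.93, 10.91 and 10.93 in wild-type arrays. It fell by 0.29 (SE 0.04, adjusted p = 8.5e-04), an amount many times the spread within either group. *Dusp8* had means of 6.40 ± 0.07 in dKO and 6.41 ± 0.06 in wild-type cells (SD, n = 3 each, adjusted p = 0.97).

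The 14 atypical DUSPs, which lack the domain that binds MAP kinases, moved little. Differences ranged from -0.11 to 0.22 and 13 of the 14 did not pass the test, so that 7.14% were called, against 23.1% of all genes. The exception was *Dusp19*, which was higher at 8.37, 8.30 and 8.37 in dKO arrays, against 8.18, 8.10 and 8.09 in wild-type arrays (log2 difference 0.22, SE 0.05, adjusted p = 0.0087). Among those that did not pass were 2 that act on TCR signals in T-cells, *Dusp22*, which targets the kinase next to the TCR (0.05, adjusted p = 0.62), and *Dusp14* (-0.08, adjusted p = 0.35). *Dusp23*, at 0.17 (adjusted p = 0.13), was called higher without dKO replicate 1 (adjusted p = 0.013). Of the PRL phosphatases, small enzymes anchored to membranes, *Ptp4a2* was lower by 0.18 (adjusted p = 0.047), a call lost without any 1 of 5 arrays (highest adjusted p = 0.14, without wild-type replicate 3) and kept without wild-type replicate 1. It was also lost with quantile normalization again (adjusted p = 0.066) and with the replicate number as a block (0.069). *Ptp4a3* had a log2 difference of -0.14 (adjusted p = 0.11) and was called lower after cyclic loess normalization (0.048).

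Of 17 non-receptor tyrosine phosphatases, 3 were lower, 2 were higher and 12 did not pass. The calls were 17.6% lower and 11.8% higher, against 10.0% and 13.1% of all genes. Among all genes above the median, where 13 of the 17 lay, the shares were 16.7% and 23.2%. *Ptpn7*, encoding the haematopoietic phosphatase HePTP, which holds ERK and p38 in the cytosol, kept 68.1% of its wild-type value. Its log2 values were 9.79, 9.77 and 9.71 in dKO arrays, against 10.21, 10.31 and 10.39 in wild-type arrays (log2 difference -0.55, SE 0.06, adjusted p = 8.4e-05). *Ptpn1*, encoding PTP1B, which acts on Jak kinases and the insulin receptor, had means of 9.61 ± 0.01 in dKO and 9.79 ± 0.04 in wild-type cells (SD, n = 3 each, adjusted p = 0.017). This call was lost without dKO replicate 2 (adjusted p = 0.052), wild-type replicate 2 (0.075) or wild-type replicate 3 (0.055).

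The increases in this class were those of *Ptpn9* and *Ptpn23*. *Ptpn9*, whose product sits on secretory vesicles, had log2 values of 8.43, 8.36 and 8.45 in dKO arrays, against 8.15, 8.14 and 8.14 in wild-type arrays (log2 difference 0.27, SE 0.05, adjusted p = 0.0019). *Ptpn23*, encoding HD-PTP, a partner of the endosomal ESCRT machinery, had 7.95, 8.08 and 7.92 in dKO arrays, against 7.70, 7.63 and 7.73 in wild-type arrays (log2 difference 0.30, SE 0.06, adjusted p = 0.0038). In both genes every dKO value was above every wild-type value, as in 21.3% of all genes. *Ptpn4*, encoding a FERM and PDZ domain phosphatase, had a log2 difference of 0.17 (adjusted p = 0.078) and was called higher with a replicate block (adjusted p = 0.032), without wild-type replicate 3 (0.045) or among the brightest 50% of genes (0.048).

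The non-receptor phosphatases best known from TCR signalling showed small differences that did not pass. *Ptpn6*, encoding SHP-1, had means of 10.36 ± 0.04 in dKO and 10.32 ± 0.02 in wild-type cells, and *Ptpn22*, encoding Pep, which inactivates Src-family kinases, had means of 10.42 ± 0.05 in dKO and 10.38 ± 0.05 in wild-type cells (SD, n = 3 each; adjusted p = 0.69 for *Ptpn6* and 0.62 for *Ptpn22*). The log2 difference of *Ptpn11*, encoding SHP-2, was -0.01 (SE 0.04), and that of *Ptpn12*, encoding PTP-PEST, was 0.04 (SE 0.06). A p above the threshold does not show that these genes were equal in both groups.

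*Ptpn2*, encoding TC-PTP, which acts on Jak and Stat proteins and on Src-family kinases, had 2 rows on the array, and they gave different sizes of change. In its brighter row, log2 values were 9.53, 9.47 and 9.53 in dKO arrays, against 9.60, 9.66 and 9.67 in wild-type arrays (log2 difference -0.14, SE 0.05, adjusted p = 0.062). In the dimmer row they were 6.82, 6.62 and 6.77 in dKO arrays, against 7.37, 7.31 and 7.31 in wild-type arrays, a log2 difference of -0.59 (SE 0.06, adjusted p = 8.7e-05 over all rows with 1 symbol, of which 10.1% were lower). Neither row overlapped between the groups, and the mean of both rows gave -0.36 (adjusted p = 5.3e-04). The brighter row alone was called lower with quantile normalization again (adjusted p = 0.030), after cyclic loess normalization (0.023), among the brightest 50% of genes (0.032) and with an intensity trend (0.039). Which transcript parts the rows cover is not in the annotation used here.

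*Ptpn3*, encoding the FERM and PDZ domain phosphatase PTPH1, had 12 rows. The brightest was lower in dKO cells, at 6.39, 6.36 and 6.50 in dKO arrays, against 6.60, 6.83 and 6.60 in wild-type arrays (log2 difference -0.26, adjusted p = 0.023). None of the other 11 rows passed, with differences between -0.10 and 0.09, and the mean of all 12 gave -0.03 (adjusted p = 0.75). The call was also lost without dKO replicate 1, dKO replicate 2 or wild-type replicate 2 (highest adjusted p = 0.088).

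**Figure D3:**
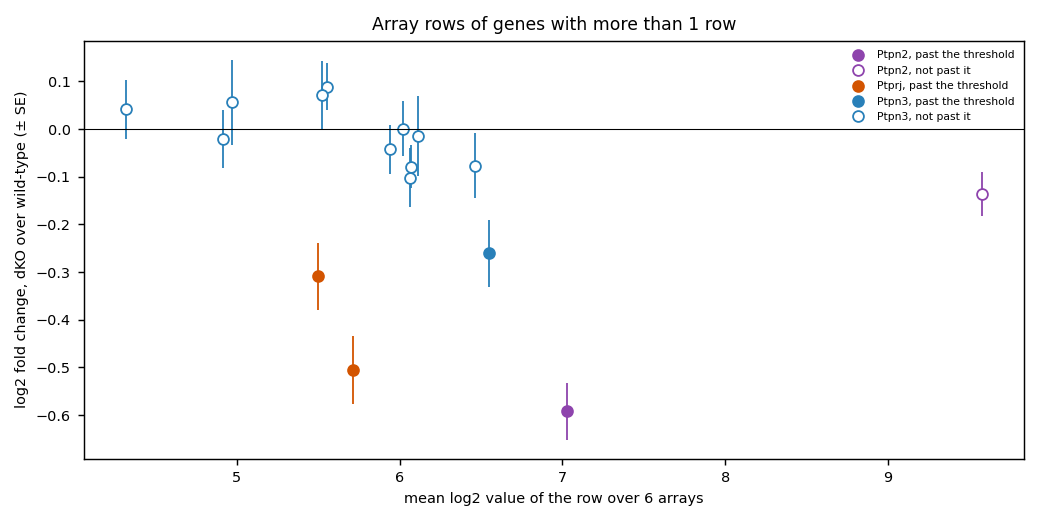
Log2 fold change (vertical axis, dKO over wild-type, bars are standard errors) of each array row of *Ptpn2*, *Ptprj* and *Ptpn3* against the mean log2 value of the row over the 6 arrays (horizontal axis). Filled points passed an adjusted p of 0.05 over all rows. Both *Ptprj* rows, 1 of 2 *Ptpn2* rows and 1 of 12 *Ptpn3* rows passed, all of them lower in dKO cells.

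Of 20 receptor-type phosphatases, 4 were lower, none was higher and 16 did not pass. The decreases were 20% of the class, against 10.0% of all genes, while 13.1% of all genes were higher. Only 6 of the 20 lay above the median of all genes, where 16.7% of genes were lower, against 3.34% of dimmer genes. *Ptpra*, encoding a receptor phosphatase that activates Src-family kinases by removing their inhibitory phosphate, had log2 values of 9.15, 9.09 and 9.20 in dKO arrays, against 9.53, 9.49 and 9.50 in wild-type arrays. It kept 78.1% of its wild-type value (log2 difference -0.36, SE 0.05, adjusted p = 4.6e-04). *Ptprj*, encoding CD148, a receptor phosphatase with an overlapping role to CD45, was lower in both of its rows. The brighter gave 5.58, 5.34 and 5.47 in dKO arrays, against 6.07, 5.88 and 5.95 in wild-type arrays (log2 difference -0.51, SE 0.07, adjusted p = 6.4e-04), and the dimmer gave a log2 difference of -0.31 (adjusted p = 0.011 over all rows). Both rows lay below the medians of the arrays.

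The remaining receptor-type genes that were lower are known mainly outside T-cells. *Ptprn*, encoding the catalytically inactive IA-2 of neuroendocrine secretory granules, had log2 values of 6.18, 6.19 and 6.05 in dKO arrays, against 6.71, 6.71 and 6.67 in wild-type arrays (log2 difference -0.56, SE 0.05, adjusted p = 5.0e-05). *Ptprv*, described in mouse bone and testis, fell by 0.47 (SE 0.11, adjusted p = 0.011), the least precise estimate among the 66 genes. Its wild-type value was highest in replicate 3, at 6.49, against 5.99 and 6.12 in the other replicates, and its 3 dKO values lay between 5.69 and 5.77. *Ptprc*, encoding CD45, had log2 values of 12.17, 12.06 and 12.09 in dKO arrays, against 12.09, 12.12 and 12.24 in wild-type arrays. These overlapped (log2 difference -0.04, SE 0.06, adjusted p = 0.67), as did those of *Ptprcap*, encoding a protein associated with CD45 that is no phosphatase (-0.06, SE 0.05, adjusted p = 0.42). Array rows summarize several exons, so a change in *Ptprc* splicing is not measured here.

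Of 17 inhibitory receptors and adaptors listed for recruiting SHP-1 or SHP-2, 9 were lower and 1, *Sit1*, was higher, with a median difference of -0.23. The list is broader than its name, as it holds *Lax1* and *Pag1*, 1 of the 9 decreases, whose product holds Csk. Its calls were 52.9% lower and 5.88% higher, against 10.0% and 13.1% of all genes. Among all genes above the median, where 9 of the 17 lay, the shares were 16.7% and 23.2%. *Ctla4* fell by 0.91 (adjusted p = 2.5e-05), *Pdcd1*, encoding the inhibitory receptor PD-1, by 0.87 (adjusted p = 3.5e-05) and *Pecam1* by 0.51 (adjusted p = 9.0e-05). *Ctla4* is also among the 4 markers of regulatory T-cells above. Of 26 measured kinases and adaptors next to the TCR, 12 were lower and 1 was higher, with a median of -0.14 (46.2% and 3.85%), and 24 of them lay above the median of all genes. Among them are kinase genes of the Tec family, of which *Txk* fell by 0.98 (adjusted p = 5.7e-07), *Tec* fell by 0.84 (adjusted p = 1.4e-05), and *Pag1*, encoding an adaptor that holds Csk at the membrane, fell by 0.38 (adjusted p = 0.0017). *Zap70*, whose product is the substrate of Sts-1, had means of 10.71 ± 0.04 in dKO and 10.62 ± 0.01 in wild-type cells (SD, n = 3 each, adjusted p = 0.20). The lists share *Cd5*, *Pag1*, *Sit1* and *Lax1*.

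In the MAP kinase cascades that the DUSPs switch off, 5 of 21 measured genes were lower and none was higher, with a median of -0.03. The decreases were 23.8% of the list, against 10.0% of all genes lower and 13.1% higher. Among all genes above the median, where 20 of the 21 lay, the shares were 16.7% and 23.2%. *Map3k5*, encoding the stress kinase Ask1, was 3.10-fold lower, at 6.51, 6.61 and 6.46 in dKO arrays, against 8.15, 8.23 and 8.10 in wild-type arrays (log2 difference -1.63, adjusted p = 9.4e-08). *Mapk6* and *Map2k5* each fell by 0.32 (adjusted p = 0.0010 and 0.0017). Of 15 regulators of Ras and ERK other than DUSPs, 5 were lower and 4 were higher (33.3% and 26.7%, with 13 of the 15 above the median, where 16.7% and 23.2% of genes were called). *Rasa3*, encoding a GTPase-activating protein, fell by 0.94 (adjusted p = 6.1e-07) and *Rasal1* by 0.50 (adjusted p = 1.4e-04), while *Nf1*, encoding neurofibromin, which also shuts Ras off, rose by 0.78 (adjusted p = 9.3e-05).

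**Figure D4:**
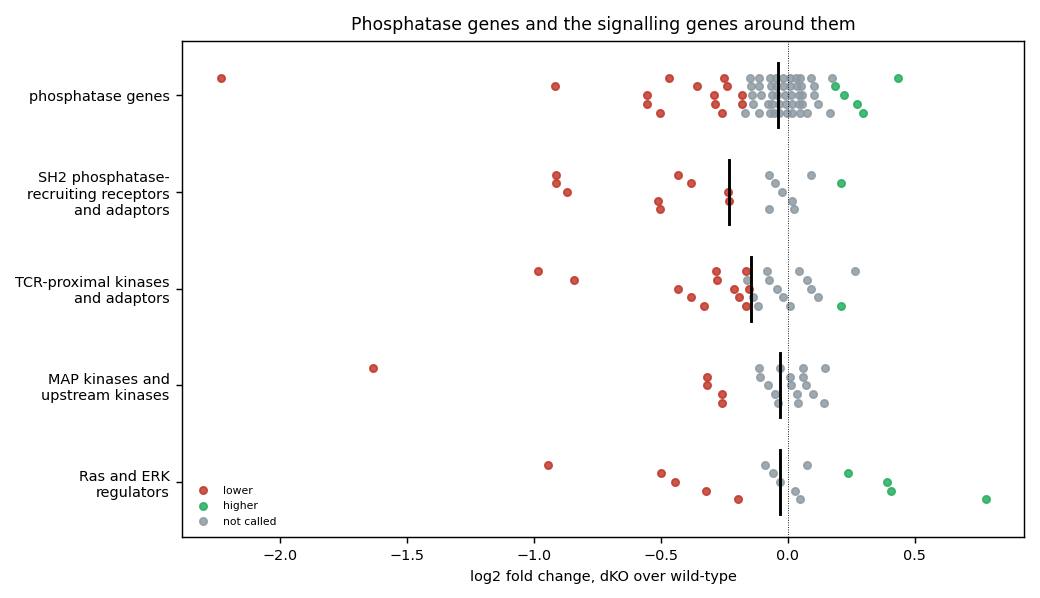
Log2 fold change (horizontal axis, dKO over wild-type) of the 66 phosphatase genes and of the measured members of 4 signalling lists (rows), coloured by the call at an adjusted p of 0.05, with a black bar at each median and vertical spread only for legibility. The medians lie at -0.04 for the phosphatase genes and at -0.23 for the inhibitory receptors and adaptors listed for recruiting SH2 phosphatases.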

How the data were processed

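According to the Methods, RNA of mature OT-II CD4 SP thymocytes was read on the Affymetrix Mouse Gene 1.0 ST array, whereas the design text of the series has Exon 1.0 ST. The authors analysed scanner files in Partek, and the deposited values are RMA log2 values (background-corrected, quantile normalized, summarized per row, versions not given in the sources used here), which would hide a shift of most genes in 1 direction. Of 25254 rows, 21496 had 1 symbol in the array annotation, and 21415 of these were found in RefSeq by Entrez identifier. Keeping the brightest row left 19752 genes. The values of all 6 columns were tested as deposited with limma 3.58.1 (R 4.3.3), with genotype as the only term, p-values adjusted by Benjamini-Hochberg across genes (threshold 0.05). Tests were tried on simulated data with known changes. Named were the 12 largest decreases and the increases among called members, a fixed set of phosphatases known from T-cells, members whose call changed under an alternative, and up to 3 genes of each list. *Zap70*, *Dusp8*, *Sit1*, *Ppp3cb*, promoter matches and cell type markers were named after their values were seen. The members and lists were chosen with earlier results of these data known. The number of arrays limits precision. Alternatives were 2 normalizations, the brightest 75% or 50% of genes, the mean of rows, a variance trend, Student's t-test, which the Methods name for other measurements, a replicate block, each array left out and a test against a fold of 1.5. Rows with several symbols were left out. Protein sequences were not used here. Figures were drawn with matplotlib 3.10.9.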

Additional observations from a re-analysis of the deposited data

How the results depend on the processing

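None of the 19 called members turned direction under the 15 alternatives, and 10 of them kept their call under every alternative that tested them except the test against a fold of 1.5. Student's t-test called 10 phosphatase genes lower and 2 higher, and 1173 of all genes lower and 1392 higher. It lost 8 of the 19 calls. These were the decreases of *Dusp4*, *Dusp7*, *Ptpn3*, *Ptprv* and *Ptp4a2* and the increases of *Dusp6*, *Dusp16* and *Ptpn23*. Adjusted p was 0.084 for *Dusp16*, the member with the largest increase, and 0.14 for *Ptp4a2*. The same test gained a call on *Ptprk*, lower by 0.11 on the log2 scale (adjusted p = 0.046, against 0.10 by limma). Against a fold of 1.5, limma called 2 phosphatase genes lower, *Ubash3b* and *Dusp5*, and 0 higher (also 0 at an unadjusted p under 0.05), and 141 of all genes lower and 63 higher, since small changes cannot pass that test. With 1 array left out, between 11 and 15 phosphatase genes were lower and 4 to 5 were higher, and 1496 to 1855 of all genes were lower and 1901 to 2259 higher. Cyclic loess normalization called 17 phosphatase genes lower and 4 higher, and 2328 of all genes lower and 2222 higher. Same-numbered arrays of the genotypes deviated together only weakly (correlations of 0.099, 0.024 and 0.070 over genes), and not every array correlated best with its own number, so the numbers were not taken to pair the arrays. With the replicate number as a block, 13 phosphatase genes were lower and 6 were higher, with 18 of the 19 calls shared (*Ptp4a2* lost, *Ptpn4* gained), and 1970 of all genes were lower and 2574 higher. Signal over background was not in the deposited values, so dim rows carry an unknown share of background.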

Other observations

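Of 26 measured genes of other cysteine and lipid phosphatases, 6 fell and 3 rose in dKO cells, which is 23.1% and 11.5%, against 10.0% and 13.1% of all genes and 16.7% and 23.2% of genes above the median, where 18 of the 26 lay. *Eya2*, encoding a tyrosine phosphatase of another fold that also acts in transcription, was 2.27-fold lower, with log2 values of 7.24, 7.29 and 7.16 in dKO arrays, against 8.50, 8.43 and 8.30 in wild-type arrays (limma, adjusted p = 1.1e-06). *Cdc25b* and *Cdc14a*, which encode cell-cycle phosphatases, fell by 0.78 (adjusted p = 1.4e-05) and by 0.51 (adjusted p = 1.1e-04).

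Calcineurin is the calcium-dependent serine and threonine phosphatase that activates NFAT. Of 7 measured genes for calcineurin and its regulators, 1 was lower and 2 were higher. These were 14.3% and 28.6%, against 10.0% and 13.1% of all genes. Among all genes above the median, where 6 of the 7 lay, the shares were 16.7% and 23.2%. Of the 3 catalytic subunit genes of calcineurin, 1 fell, 1 rose and 1 did not pass the test. *Ppp3cc* was 3.17-fold lower, at 7.12, 6.94 and 6.96 in dKO arrays, against 8.68, 8.79 and 8.56 in wild-type arrays (log2 difference -1.66, adjusted p = 3.2e-07). *Ppp3ca* was 1.77-fold higher, at 9.59, 9.66 and 9.73 in dKO arrays, against 8.94, 8.85 and 8.71 in wild-type arrays (log2 difference 0.82, adjusted p = 1.6e-05). *Ppp3cb*, the subunit gene with the remaining catalytic chain, had a log2 difference of 0.10 (adjusted p = 0.21), and *Rcan1*, encoding a calcineurin regulator, rose by 0.21 (adjusted p = 0.041).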
